A study of Mus musculus with 6 samples.

Results

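Fc receptors read the constant part of antibodies on immune cells, and 8 genes of this system were examined in aortas that lacked soluble ST2. They are the activating Fc gamma receptors Fcgr1, Fcgr3 and Fcgr4, the inhibitory Fc gamma receptor Fcgr2b, the signalling adaptors Fcer1g and Tyrobp, the kinase Syk, and Fcgrt, the heavy chain of the neonatal Fc receptor. They were taken by gene symbol, 1 row each, from a count table of 56748 genes, and all 8 passed the filter on low counts, as did 16377 genes in all. The libraries were made from poly(A) RNA of the aorta of Apoe-/- mice, a strain that lacks apolipoprotein E and is prone to atherosclerosis. Each mouse was 6 months old and received angiotensin II, a peptide that raises blood pressure and injures the aortic wall, from an implanted pump for 28 days. The sST2-KO group (n = 3) also lacked sST2, the secreted decoy form of the IL-33 receptor. The WT group (n = 3) were littermates with that form intact. By the labels, both groups were thus Apoe-deficient and angiotensin II-treated, and a mouse without either was not analysed here. How the sST2 allele was made is not given in the sources used here.

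Activating Fc gamma receptors on macrophages, monocytes, neutrophils and NK cells have no signalling motif of their own and assemble with Fcer1g, the common gamma chain. When immune complexes cluster them, Src-family kinases phosphorylate the tyrosines of an immunoreceptor tyrosine-based activation motif (ITAM) in the adaptor, and Syk docks there and starts phagocytosis and cytokine release. Tyrobp is a sister adaptor that serves receptors such as TREM2. Fcgr2b carries the opposite motif (ITIM), which recruits the phosphatase SHIP and restrains the same cells. Fcgrt is a different kind of receptor: it pairs with beta-2 microglobulin, lies inside endothelial cells and macrophages, and returns IgG and albumin to the blood.

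The motifs that set activating and inhibitory signalling apart are shown first, because the results below are ordered by them. Each is the coding sequence of a mouse transcript in GENCODE vM21, 5′ to 3′, with the codons of the motif's tyrosines in capitals. The first spans codons 65 to 79 of 86, the second codons 92 to 106 of 114, and the third codons 317 to 322 of 340.
Fcer1g ITAM: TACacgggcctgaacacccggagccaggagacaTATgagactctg
Tyrobp ITAM: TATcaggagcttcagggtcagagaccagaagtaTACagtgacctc
Fcgr2b ITIM: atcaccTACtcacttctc
Both adaptor motifs hold a pair of tyrosines, and the receptor motif holds 1. Aligned over their coding sequences of 276 and 342 bases, Fcer1g and Tyrobp were identical at 64.3% of 258 aligned bases, leaving out gaps. The Fcer1g sequence aligned was from a longer transcript than the one shown, and no chance level was computed.

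Fcgr3 and Fcgr2b share much of the sequence that encodes their outer part, which bears on how reads could be assigned to either. Their coding sequences were identical at 87.5% of aligned bases, against 67.8% to 69.8% for the other pairs among the 4 Fc gamma receptors. The longest identical stretch, which is coding in both transcripts, ran for 129 bases.
Fcgr3 and Fcgr2b: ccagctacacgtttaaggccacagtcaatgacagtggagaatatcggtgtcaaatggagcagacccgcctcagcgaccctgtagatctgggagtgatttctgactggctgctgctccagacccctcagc
Of all 50-base windows of the Fcgr3 transcript, 12.8% also occurred in Fcgr2b, and 4.75% of those of Fcgr2b occurred in Fcgr3. No such window was shared between any other pair of the 4. The counts of Fcgr3 and Fcgr2b are therefore uncertain by the reads that fall in the shared stretch, whose assignment is not given in the sources used here.

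Promoters are shown for the 3 activating receptors, whose transcripts were lower in mean in sST2-KO aortas, as were those of Fcgr2b, Fcer1g, Tyrobp and Syk. Each line gives the 120 bases before a RefSeq start site in GRCm38.p6, on the gene's strand. Capitals mark matches on either strand to GAGGAA (the core bound by the myeloid factor PU.1 and other ETS proteins), TTCNNNGAA (the core of a STAT site) or an interferon-response core (GAAA, any 2 bases, then GAAA).
Fcgr1, chr3:96293970-96294089, minus strand: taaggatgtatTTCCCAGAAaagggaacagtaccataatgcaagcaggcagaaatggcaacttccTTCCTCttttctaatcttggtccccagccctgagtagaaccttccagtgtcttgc
Fcgr3, chr1:171059404-171059523, minus strand: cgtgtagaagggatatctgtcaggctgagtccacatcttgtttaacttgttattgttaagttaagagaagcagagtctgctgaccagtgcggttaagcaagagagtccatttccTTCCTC
Fcgr4, chr1:171018806-171018925, plus strand: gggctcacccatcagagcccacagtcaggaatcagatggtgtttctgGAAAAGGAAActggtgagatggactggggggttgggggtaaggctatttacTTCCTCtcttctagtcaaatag
A promoter of 300 bases was found for 7 of the 8 genes. GAGGAA occurred in those of Fcgr1, Fcgr3, Fcgr4 and Syk, and in at least 1 promoter of 31.3% of 27025 mouse genes (28.3% of 32851 promoters). TTCNNNGAA occurred in Fcgr1 and in 9.55% of genes (8.3% of promoters), and the interferon-response core in Fcgr4 and in 3.99% of genes (3.44% of promoters). Syk matched in 1 of its 2 promoters. The promoters of Fcgr2b, Fcer1g and Fcgrt held no match, although Fcgr2b and Fcer1g were also lower in mean in sST2-KO aortas. A match is a run of letters and not a measured binding site.

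The libraries held 15615658 to 17988552 counts each, and they differed in more than genotype. Mitochondrially encoded genes took 7.08% to 23.7% of counts in sST2-KO libraries and 18.4% to 37.8% in WT libraries. In sST2-KO replicate 2, 918 genes lay far above all other libraries, among them the airway secretory gene Scgb1a1. In WT replicate 3, 193 genes did so, among them the liver gene Alb. Il1rl1, the ST2 gene, had 2.39, 2.82 and 4.86 CPM (counts scaled to library size, with TMM factors that correct for differences in RNA make-up) in sST2-KO libraries and 2.81, 9.49 and 4.35 CPM in WT libraries. These values overlapped, and a count per gene cannot separate the secreted form from the membrane receptor, so the genotype labels could not be checked this way. Apoe had 172, 86.7 and 145 CPM in sST2-KO libraries and 15.1, 11.6 and 507 CPM in WT libraries. It was higher in every sST2-KO library than in WT replicates 1 and 2, while WT replicate 3 also held the liver transcripts. The labels give all mice the same Apoe genotype, which these unequal counts neither bear out nor settle, and the part of this difference in the results was not tested.

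No gene differed between sST2-KO and WT aortas after adjustment for all 16377 tests (0%, edgeR quasi-likelihood test, Benjamini-Hochberg adjusted p under 0.05, lowest adjusted p 0.264), and the 8 genes are described by their values on that footing. At an unadjusted p under 0.05, 974 genes were lower and 832 higher in sST2-KO aortas, 11% in all. Of the 8 genes, 5 were lower at that level, where 5.95% of all tested genes were. The 8 were chosen with earlier results of these data known, so their counts here are descriptions. For 5 of the 8 every sST2-KO library lay below every WT library, as for 10% of all genes (19.1% counting both directions). A log2 difference (sST2-KO over WT) below 0 was found for 7 of the 8 and for 46.5% of all genes. By DESeq2, which called 232 genes lower (1.42%) and 59 higher, Fcgr2b, Fcgr1 and Fcgr3 were lower, with adjusted p of 4.58e-05, 0.0228 and 0.0251. That share is of all 16377 genes, of which 1862 got no adjusted p by DESeq2. By limma-voom no gene passed, and with sample quality weights 35 genes were lower (0.214%) and 8 higher, none of them among the 8. In bulk tissue, fewer cells that carry a transcript and less of it per cell cannot be told apart.

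**Figure D1:**
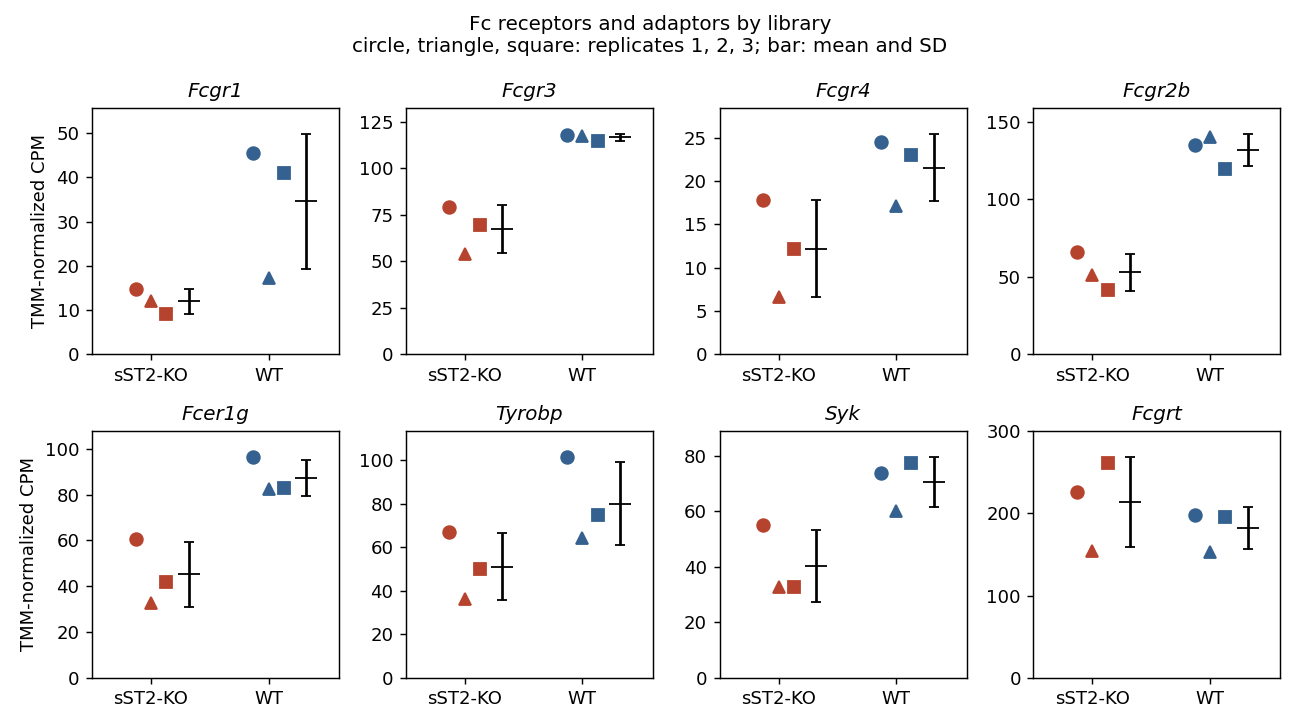
TMM-normalized CPM of the 8 genes, with sST2-KO libraries left of WT libraries. Circles, triangles and squares are replicates 1, 2 and 3, for which the labels state no pairing, and bars are mean and SD (n = 3). Fcgr1, Fcgr3, Fcgr2b, Fcer1g and Syk show no overlap between groups, while Fcgr4, Tyrobp and Fcgrt do.

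Fcgr1 encodes the high-affinity receptor for monomeric IgG and lies on chromosome 3 (mm39 chr3:96190225-96201285, minus strand, ENSMUSG00000015947). It had 14.8, 12.02 and 9.05 CPM in sST2-KO libraries and 45.5, 17.2 and 41.0 CPM in WT libraries. All sST2-KO values lay below all WT values, but WT replicate 2 stood much nearer to them than to the other WT libraries. The log2 difference was -1.53 (SE 0.39, adjusted p = 0.386 by edgeR), which was the largest in size among the 8. Leaving out 1 library at a time gave values from -1.88 to -1.29. Without WT replicate 2 and sST2-KO replicate 2, the libraries with the highest and lowest mitochondrial shares, it was -1.86 and passed the edgeR threshold (adjusted p = 0.0499). That pair was chosen after seeing the data, and 112 of 16648 genes passed in that fit. It leaves out the WT library nearest to the sST2-KO values of Fcgr1.

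Fcgr3 is the low-affinity activating receptor for immune complexes found on most myeloid cells and on NK cells (chr1:170878743-170892504, minus strand, ENSMUSG00000059498). It had 79.1, 53.7 and 69.7 CPM in sST2-KO libraries, against 118, 117.5 and 114.7 CPM in WT libraries. The WT values were nearly level while the sST2-KO values spread, and the groups were well apart. It averaged 67.5 ± 12.8 CPM in sST2-KO aortas and 117 ± 1.76 CPM in WT aortas (SD, n = 3 per group). The log2 difference was -0.79 (SE 0.18, edgeR adjusted p = 0.354).

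Fcgr4, a receptor of mouse monocytes, macrophages and neutrophils that prefers IgG2a/c and IgG2b, lies between Fcgr2b and Fcgr3 (chr1:170846489-170857330, plus strand, ENSMUSG00000059089). Its values were 17.8, 6.58 and 12.2 CPM in sST2-KO libraries and 24.5, 17.1 and 23.0 CPM in WT libraries. The highest sST2-KO library lay just above the lowest WT library, so the groups overlapped. Its log2 difference of -0.82 (SE 0.37, edgeR adjusted p = 0.468) was near that of Fcgr3, with a wider error, and ran between -1.20 and -0.52 when 1 library at a time was left out.

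Fcgr2b, the inhibitory receptor of macrophages and B cells, lies about 253 kb from Fcer1g in the same stretch of chromosome 1 (chr1:170786186-170804116, minus strand, ENSMUSG00000026656). It had 65.7, 51.2 and 41.4 CPM in sST2-KO libraries and 135, 140 and 120 CPM in WT libraries. The highest sST2-KO value was far under the lowest WT value. The mean was 52.8 ± 12.2 CPM in sST2-KO aortas and 132 ± 10.5 CPM in WT aortas (SD, n = 3 per group). The log2 difference was -1.32 (SE 0.21), with the lowest unadjusted p of the 8 (0.000377) and an edgeR adjusted p of 0.294. Leaving out 1 library at a time gave -1.51 to -1.17.

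Fcer1g, the gamma chain that carries the first motif shown above, had 60.6, 32.8 and 42.0 CPM in sST2-KO libraries and 96.2, 82.3 and 83.0 CPM in WT libraries (chr1:171057141-171061934, minus strand, ENSMUSG00000058715). The groups did not overlap. The log2 difference was -0.95 (SE 0.24, edgeR adjusted p = 0.386), within the range of those of the 3 receptors that need it.

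Tyrobp, the sister adaptor on chromosome 7, had 67.2, 36.2 and 49.8 CPM in sST2-KO libraries and 101, 64.3 and 74.7 CPM in WT libraries (chr7:30113185-30117010, plus strand, ENSMUSG00000030579). The highest sST2-KO library was above the lowest WT library. Its log2 difference of -0.65 (SE 0.28, edgeR adjusted p = 0.455) was the smallest in size among the 7 genes below 0. The ratio of Tyrobp to Fcer1g, each per kilobase of deposited gene length, was 1.45, 1.45 and 1.56 in sST2-KO libraries and 1.38, 1.02 and 1.18 in WT libraries. It was higher in every sST2-KO library than in any WT library, and no test was run on it.

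Syk, the kinase that binds the phosphorylated motifs, had 55.1, 32.7 and 32.8 CPM in sST2-KO libraries and 73.6, 60.2 and 77.3 CPM in WT libraries (chr13:52737209-52802828, plus strand, ENSMUSG00000021457). The groups did not overlap, and sST2-KO replicate 1 came closest to the WT libraries. Syk differed by a log2 value of -0.81 (SE 0.25, edgeR adjusted p = 0.425).

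Fcgrt was the exception among the 8. It had 226, 154 and 261 CPM in sST2-KO libraries and 198, 153 and 195 CPM in WT libraries (chr7:44742414-44753275, minus strand, ENSMUSG00000003420). The ranges overlapped, and the lowest library of each group stood at nearly the same level. The log2 difference was 0.23 (SE 0.25, edgeR adjusted p = 0.707), and between 0.061 and 0.42 when 1 library at a time was left out.

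**Figure D2:**
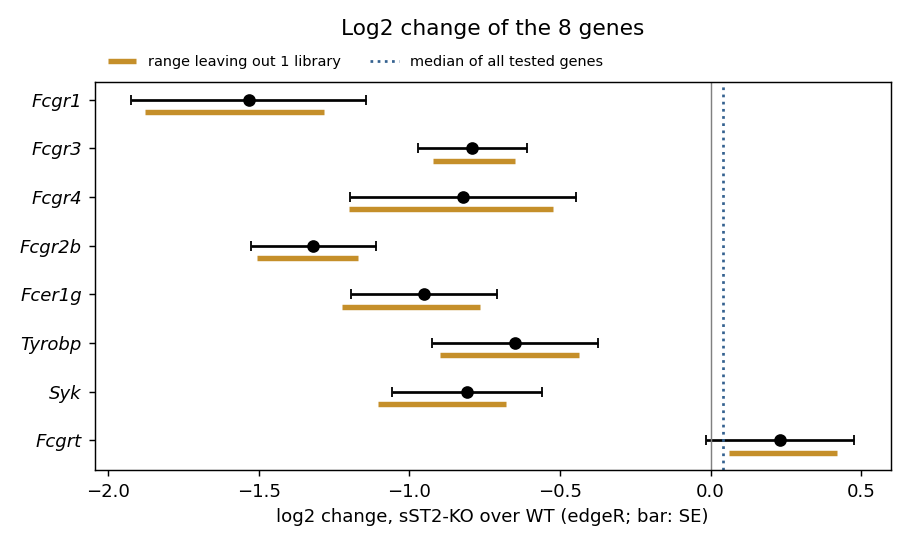
Log2 difference (sST2-KO over WT) of each gene by edgeR, with its SE as a black bar and the range over fits that leave out 1 library as an ochre bar; the dotted line is the median of all tested genes, 0.04. Fcgr1 and Fcgr2b lie furthest below 0 and Fcgrt is the only gene above 0.

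Fcgr1, Fcgr3, Fcgr4, Fcgr2b, Fcer1g, Tyrobp and Syk each had sST2-KO replicate 2 or 3 as the lowest library of all 6, and their sST2-KO replicate 1 was the highest of its group. The values depend on scaling. The TMM factor was 1.19 in sST2-KO replicate 2, which had the lowest mitochondrial share, and 0.781 in WT replicate 2, which had the highest. On CPM of the total counts with no such factors, 3 of the 8 genes had groups that did not overlap (5.89% of all genes), and the median of all genes was 0.15 in place of 0.04. On TPM, computed from the deposited lengths, only Fcgr3 and Fcgr2b kept groups apart, and the share of all genes that do so on TPM was not computed. The part of these library differences in the results was not tested.

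Levels of different genes were compared as CPM per kilobase of deposited gene length. In WT libraries the order of means was Tyrobp, Fcer1g, Fcgrt, Fcgr3, Fcgr2b, Fcgr4, Fcgr1 and Syk, at 120 ± 28.6, 99.7 ± 8.98, 86.6 ± 12.1, 67.3 ± 1.02, 22.8 ± 1.81, 17.2 ± 3.09, 13.4 ± 5.88 and 7.52 ± 0.961 CPM per kb (SD, n = 3). Tyrobp overlapped Fcer1g, Fcer1g overlapped Fcgrt, Fcgr4 overlapped Fcgr1 and Fcgr1 overlapped Syk in that order, whereas the other neighbours had separate ranges. In sST2-KO libraries Fcgrt stood first, at 102 ± 25.97 CPM per kb, ahead of Tyrobp at 76.5 ± 23.3 and Fcer1g at 51.6 ± 16.2, and each of these overlapped the next. Fcgr3 followed at 38.9 ± 7.40 CPM per kb, then Fcgr4, Fcgr2b, Fcgr1 and Syk at 9.71 ± 4.48, 9.12 ± 2.11, 4.61 ± 1.11 and 4.29 ± 1.38. Fcgr4 and Fcgr2b overlapped, as did Fcgr1 and Syk. The deposited lengths exceed the longest coding transcript in GENCODE vM21 for all but Fcgr1 and Fcgr4, most of all for Fcgr2b (5790 against 3544 bases) and Syk (9362 against 5363 bases). Per kb of that transcript the WT order was the same. In sST2-KO libraries, however, Fcgr2b at 14.9 ± 3.45 CPM per kb then stood above Fcgr4 at 9.71 ± 4.48, and Syk at 7.49 ± 2.40 above Fcgr1 at 4.61 ± 1.11, so the order within these pairs depends on the length used.

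The 4 Fc gamma receptors together amounted to 76.8, 49.7 and 60.5 CPM per kb in sST2-KO libraries and 128, 112 and 121 in WT libraries, and the groups did not overlap. The make-up of that sum was as follows. Fcgr3 took 59.3%, 62.3% and 66.4% of the sum in sST2-KO libraries and 52.9%, 60.3% and 54.6% in WT libraries. Fcgr2b took 14.8%, 17.8% and 11.8% in sST2-KO libraries and 18.2%, 21.6% and 17.1% in WT libraries. The shares of all 4 receptors overlapped between groups. The ratio of the 3 activating receptors to Fcgr2b was 5.77, 4.61 and 7.45 in sST2-KO libraries and 4.50, 3.64 and 4.84 in WT libraries. It was higher in mean in sST2-KO libraries, with 1 of them inside the WT range. With the length of the longest coding transcript it was 4.24, 3.44 and 5.55, against 3.27, 2.72 and 3.53 in WT libraries. Fcer1g stood at 1.06, 0.918 and 0.901 times the sum of its 3 receptor partners in sST2-KO libraries and at 1.05, 1.07 and 0.947 times in WT libraries, with overlapping ranges.

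**Figure D3:**
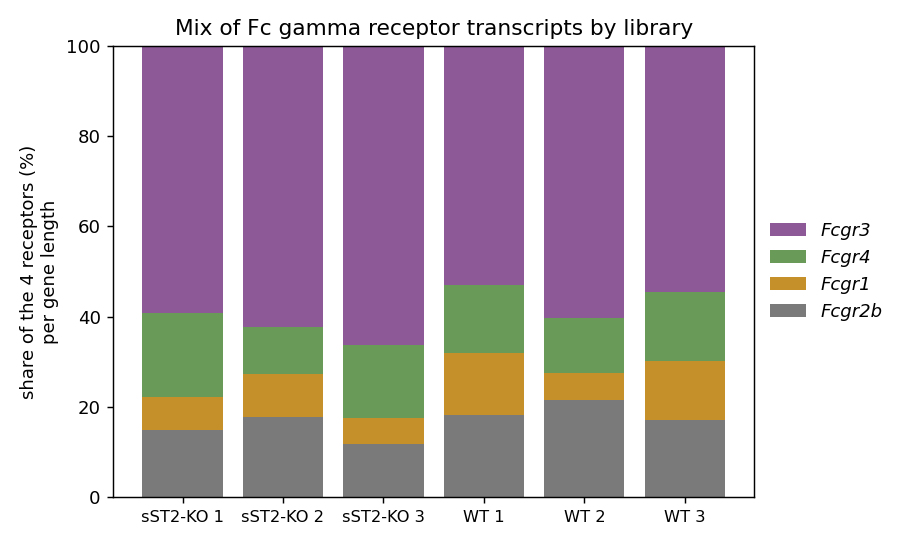
Share (%) of Fcgr3, Fcgr4, Fcgr1 and Fcgr2b in the sum of the 4 receptors, each as CPM per kb of deposited gene length, in every library, sST2-KO left of WT. Fcgr3 makes up between 52.9% and 66.4% of the sum in each library, and the shares of each receptor overlap between groups.

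Markers of macrophages and monocytes lay on the same side. Of 18 such genes, 17 had a log2 difference below 0 and 13 were lower at an unadjusted p under 0.05, with a median of -0.84, beside a median of 0.04 over all tested genes. Adgre1 (F4/80) had 42.7, 27.3 and 26.6 CPM in sST2-KO libraries and 94.5, 89.3 and 90.9 CPM in WT libraries. Itgam (CD11b) differed by -1.34 and Ccr2, the receptor of recruited monocytes, by -1.52, while the complement genes C1qb and C1qa differed by -0.64 and -0.55. Lyz2, the lysozyme gene, was the exception at 0.19, with 3152 CPM in sST2-KO replicate 2 against at most 2051 CPM elsewhere. The summed level of the 18 was 2587 to 4277 CPM in sST2-KO libraries and 3798 to 4487 CPM in WT libraries, and none was at 0 in any library. The count of 13 became 7 when sST2-KO replicate 3 or WT replicate 3 was left out, 6 when WT replicate 1 was, and 8 with unscaled total counts.

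Relative to the mean log2 CPM of those 18 markers in the same library, 6 of the 8 genes overlapped between groups. Fcgr3 then differed by 0.07, Fcgr4 by -0.03, Syk by 0.03, Fcer1g by -0.11 and Tyrobp by 0.21 on the log2 scale, and Fcgr1 by -0.55. Fcgr2b lay at -0.11, -0.11 and -0.22 relative to the markers in sST2-KO libraries and at 0.19, 0.67 and 0.10 in WT libraries. It thus lay below the mean log2 CPM of the markers in sST2-KO libraries and above that mean in WT libraries, without overlap. Fcgrt lay at 1.68, 1.48 and 2.43 in sST2-KO libraries and at 0.74, 0.79 and 0.80 in WT libraries, again without overlap but in the other direction. Most of the markers were themselves lower in sST2-KO libraries, so a gene that did not differ would lie higher there on this scale. Fcgrt differed by 0.23 before this step and by 1.08 after it. The share of all genes whose groups stand apart on this scale was not computed. These are descriptions without a test, and the markers share libraries, depth and scaling with the genes set against them.

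**Figure D4:**
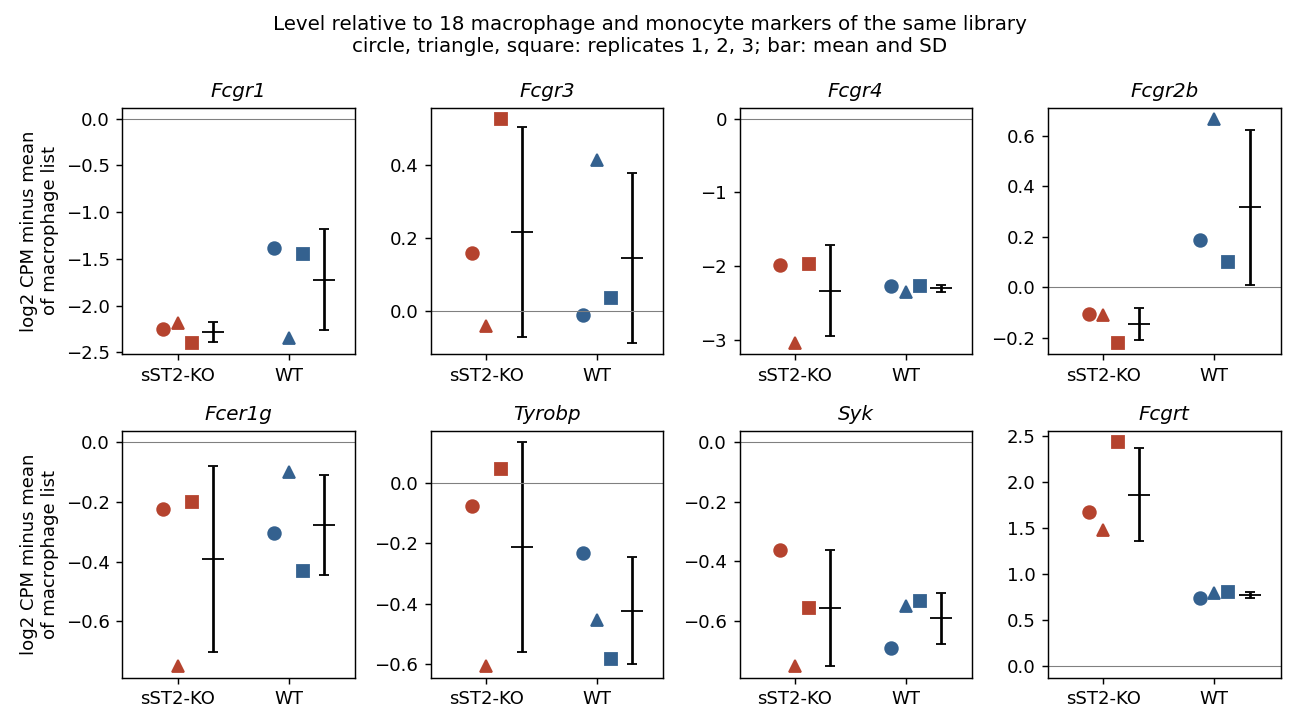
Log2 CPM of each gene minus the mean log2 CPM of 18 macrophage and monocyte markers in the same library, sST2-KO left of WT; symbols are replicates and bars are mean and SD (n = 3). Only Fcgr2b (lower in sST2-KO) and Fcgrt (higher in sST2-KO) show no overlap.

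Marker lists of other cell types differed in direction. Of 9 platelet markers, 9 were below 0 and 6 lower at an unadjusted p under 0.05 (4 when WT replicate 1 was left out, 3 when WT replicate 3 was), with summed levels of 71.9 to 134 CPM in sST2-KO libraries and 167 to 197 CPM in WT libraries. The platelet chemokine Ppbp had 4.77, 3.27 and 6.85 CPM in sST2-KO libraries and 23.3, 22.3 and 33.99 CPM in WT libraries. Neutrophil markers were lower at that level for 2 of 9, and for 4 when sST2-KO replicate 1 was left out. No neutrophil marker was lower when sST2-KO replicate 3 or WT replicate 3 was left out, and 1 was when sST2-KO replicate 2 or WT replicate 1 was. Their sums were 120, 2168 and 37.1 CPM in sST2-KO libraries and 213, 110 and 336 CPM in WT libraries, with 2074 CPM of Ltf, which glands also make, in sST2-KO replicate 2. T and NK cell markers were lower for 0 of 9 by edgeR (6 of 9 below 0, median -0.22). Their direction rested on single libraries: 11 of 11 were below 0 when sST2-KO replicate 1 (median -1.28) or WT replicate 2 (median -1.02) was left out. Medians were -0.06 when WT replicate 3 was left out, -0.43 when sST2-KO replicate 2 was and -0.70 when sST2-KO replicate 3 was. B and plasma cell markers were lower for 1 of 9. That count was 4 when sST2-KO replicate 1 was left out, and 0 when sST2-KO replicate 2 or 3, or WT replicate 2 or 3, was. Of 8 mast cell markers, 3 were below 0 and 5 above, with a median of 0.22. Their sums were 63.9 to 138 CPM in sST2-KO libraries and 45.9 to 62.2 CPM in WT libraries. Hdc, the enzyme that makes histamine, made up 83.7 CPM of the sum in sST2-KO replicate 2, against at most 12.2 CPM elsewhere. Groups were apart for Cpa3, at -0.45, and for Tpsb2 and Hdc, at 0.54 and 2.57. Endothelial markers, from a cell that carries Fcgrt, were above 0 for 11 of 12 with a median of 0.33, and their sums were 988 to 2597 CPM in sST2-KO libraries and 1291 to 1534 CPM in WT libraries. Without sST2-KO replicate 1 that median was -0.04, with 7 of 12 below 0. Without sST2-KO replicate 2 it was 0.67, and 8 of 12 were higher at an unadjusted p under 0.05 in place of 1, which was the tight-junction gene Cldn5. At most 3 markers of any of these lists were at 0 in a library. The part of these cell types in the receptor values was not tested.

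Receptors that use the same adaptors lay on the same side. The lists that follow were chosen with earlier results of these data known, so their counts are descriptions. The first list holds receptors that signal through Fcer1g, Tyrobp or the related adaptor Hcst, Hcst itself, and Clec7a, which has a related motif in its own tail. Of its 21 tested genes, 20 were below 0, 7 were lower at an unadjusted p under 0.05 and none was higher, with a median of -1.14. Siglec1, a macrophage receptor for sialic acid, had 12.6, 8.66 and 8.32 CPM in sST2-KO libraries and 36.0, 23.3 and 33.3 CPM in WT libraries (log2 difference -1.65, SE 0.27, edgeR adjusted p = 0.298). Clec5a, a Tyrobp-coupled lectin, differed by -1.31, the Fcer1g-coupled Cd300ld by -1.16 and the NK cell receptor Klrk1 by -1.80. The most abundant of the list had smaller differences. Trem2, which senses lipids in macrophages, differed by -0.57 (SE 0.38) and the beta-glucan receptor Clec7a by -0.51 (SE 0.41), both with overlapping groups. Without sST2-KO replicate 1 the count of 7 was 13, and without WT replicate 3 it was 4.

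Of 28 kinases, adaptors and effectors downstream of the ITAM, 26 were below 0, 18 were lower at an unadjusted p under 0.05 and none was higher, with a median of -0.74. Nfam1, which carries an ITAM itself, had 16.9, 8.41 and 9.65 CPM in sST2-KO libraries and 32.7, 31.8 and 27.5 CPM in WT libraries (log2 difference -1.40, SE 0.30, edgeR adjusted p = 0.339). The adaptor Fyb differed by -1.17, the leukocyte lipid kinase Pik3cd by -0.96 and the actin regulator Was by -1.02. Lyn, a Src-family kinase that phosphorylates both kinds of motif, had 51.0, 49.5 and 29.1 CPM in sST2-KO libraries and 68.9, 68.3 and 65.2 CPM in WT libraries. It is named outside the naming rule, after its values were seen. The more widely expressed Prkcd and Gab2 differed by -0.39 and -0.48. The count of 18 was 10 when sST2-KO replicate 3 was left out, 8 when WT replicate 1 was, 9 when WT replicate 3 was, and 8 with unscaled total counts.

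Genes of the inhibitory arm also lay mostly below 0. Of 22 inhibitory receptors, phosphatases and adaptors, 20 were below 0 and 14 were lower at an unadjusted p under 0.05, with none higher and a median of -0.95. Lilrb4a, an ITIM receptor of myeloid cells, had 23.6, 13.8 and 11.8 CPM in sST2-KO libraries and 59.1, 58.7 and 49.6 CPM in WT libraries (log2 difference -1.77, SE 0.28, edgeR adjusted p = 0.294). The myeloid lectin Clec4a2 differed by -1.46, the collagen receptor Lair1 by -1.24 and Cd72 by -1.76. Sirpa, the receptor for the "do not eat me" signal CD47, differed by -0.64. Pecam1, which has an ITIM but is mainly endothelial, differed by 0.43 with overlapping groups. Without WT replicate 1 the count of 14 was 8.

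Among 10 other tested receptors and binders of immunoglobulin, 9 were below 0 and 1 was lower at an unadjusted p under 0.05. That gene was Fcrls, a scavenger receptor-like relative of the Fc receptors, with 35.2, 22.5 and 24.9 CPM in sST2-KO libraries and 73.7, 66.4 and 64.5 CPM in WT libraries (log2 difference -1.31, SE 0.21, edgeR adjusted p = 0.294). Trim21, the Fc receptor of the cytosol, differed by -0.56, and the B cell genes Fcrl1 and Fcrla by -1.05 and -1.09 at levels under 3 CPM. B2m, the light chain that pairs with Fcgrt, differed by -0.55 (SE 0.34) and Lgals3 by -0.40 (SE 0.27), so B2m and Fcgrt had differences of opposite sign, both within overlapping groups. The count of 1 was 4 without WT replicate 2 and 2 without sST2-KO replicate 1 or 3.

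The ligands were scattered. Of 12 tested immunoglobulin constant regions and the joining chain, 6 were below 0 and 6 above, with a median of 0.07, 3 lower and 1 higher at an unadjusted p under 0.05. Among the IgG isotypes that Fc gamma receptors bind, Ighg2b had 2.95, 11.8 and 2.66 CPM in sST2-KO libraries and 41.2, 12.1 and 32.6 CPM in WT libraries (log2 difference -2.30, SE 0.71, edgeR adjusted p = 0.426). Ighg2c had 2.33, 8.16 and 14.0 CPM in sST2-KO libraries, against 39.6, 11.5 and 28.3 CPM in WT libraries. WT replicate 2 was the lowest WT library for both, and for Ighg2c it lay within the sST2-KO range. Igha, the IgA heavy chain, went the other way, with 44.3, 180 and 132 CPM in sST2-KO libraries and 40.3, 38.7 and 40.5 CPM in WT libraries (log2 difference 1.57, SE 0.46, edgeR adjusted p = 0.420). Ighd differed by -1.31, and the abundant Ighm and Igkc by 0.49 (SE 0.72) and 0.78 (SE 0.57). The list's median was -1.14 without sST2-KO replicate 2, the library with airway transcripts, and -0.45 without WT replicate 2. The count of 3 was 0 when WT replicate 1 was left out, and 1 when WT replicate 3 was or with unscaled total counts. The median was 0.56 when WT replicate 1 was left out and 0.40 when sST2-KO replicate 3 was.

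Fcgr2b, Fcgr4, Fcgr3 and Fcer1g lie close together on chromosome 1, and their neighbours lay on both sides of 0. Within 500 kb on either side, 29 other tested protein-coding genes were examined, of which 9 were below 0 and 20 above, with a median of 0.27. At an unadjusted p under 0.05, 5 were lower (background 5.95%) and 3 higher (background 5.08%). The 5 lower genes are expressed by blood cells: Arhgap30, and the SLAM family genes Cd244a, Ly9, Slamf7 and Cd48, with log2 differences of -1.04 for Arhgap30, -1.24 for Cd244a, -1.34 for Slamf7 and -1.33 for Cd48. Ly9 averaged 9.46 CPM in sST2-KO libraries and 18.9 CPM in WT libraries. Of the 3 higher genes, Cfap126, a cilium gene, rested on sST2-KO replicate 2, which held 99.3 CPM of it, against at most 2.16 CPM in any other library. B4galt3 and F11r differed by 0.69 and 0.61. Sdhc, a respiratory chain gene between Fcgr3 and Fcer1g, differed by 0.66 (SE 0.29).

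**Figure D5:**
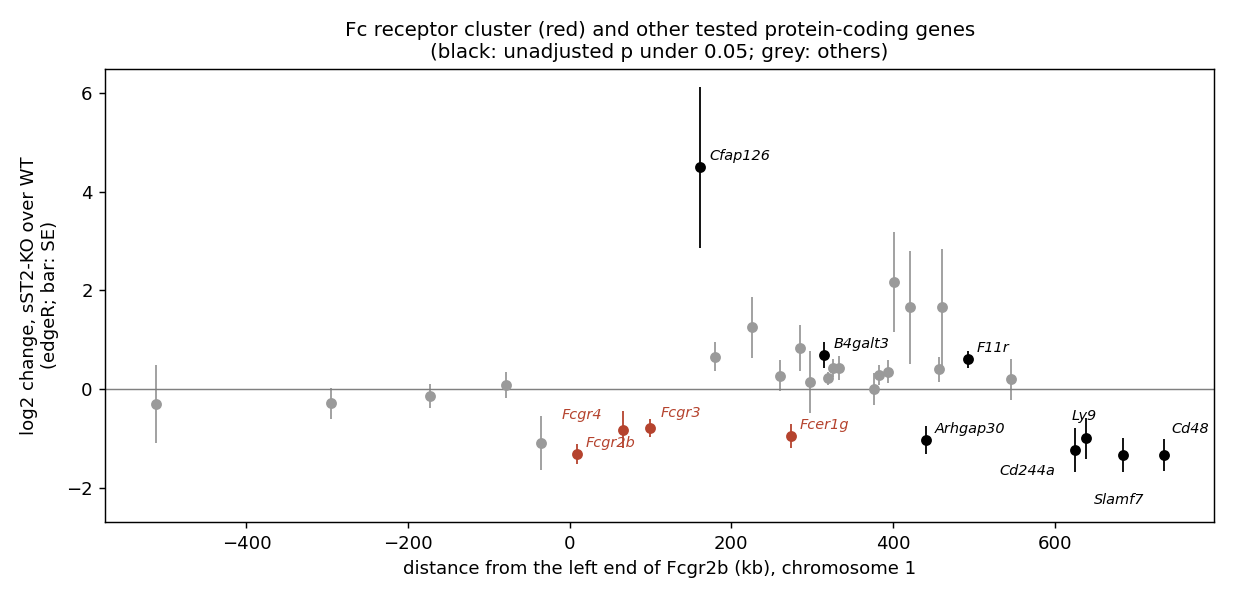
Log2 difference (sST2-KO over WT, with SE) of tested protein-coding genes against distance from the left end of Fcgr2b in kb; red marks the 4 Fc receptor system genes, black other genes with an unadjusted p under 0.05, grey the rest. The red genes and 5 black genes lie below 0, while genes between Fcgr3 and Fcer1g lie above it.

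The gene profiles most like these were sought among 9989 other protein-coding genes with a mean of at least 10 CPM, by the root mean square difference of log2 CPM centred per gene over the 6 libraries. Nearest to the mean profile of the 7 genes other than Fcgrt were Selplg (the ligand of P-selectin on leukocytes), Steap4 (a metalloreductase), Pld4 (an endolysosomal nuclease), Pik3cd, Sla (a Src-like adaptor) and Ctss (the lysosomal protease cathepsin S), at 0.062 to 0.101. Ctss had 446, 221 and 316 CPM in sST2-KO libraries and 718, 530 and 654 CPM in WT libraries. Among the 7 themselves, Fcer1g lay closest to that mean at 0.097 and Fcgr1 farthest at 0.43, and Fcgrt lay at 0.64. Nearest to Fcgrt were Lrp3, Stoml2, Dtnbp1, Pkm, Msrb1 and Rbm28, at 0.045 to 0.063, none of which is a marker of macrophages in the lists used. This likeness is over 6 libraries and was not tested.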

How the data were processed

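Aortic poly(A) RNA of 3 sST2-KO and 3 WT mice was sequenced. The deposited table gives the authors' raw counts, 1 row per Ensembl gene. The build is mm39, per the submitters' processing notes, and the aligner, counter, annotation and strand setting are not stated there or in the labels. Reads of antisense genes could then not be told apart. Rows overlapping the 8 genes held at most 4 counts, which cannot show how reads in the overlaps were assigned. The deposited gene length, in bases, has no stated method. Counts were analysed with edgeR 4.0.16 in R 4.3.3 (filterByExpr with a minimum count of 10 and total of 15, TMM factors, quasi-likelihood test, Benjamini-Hochberg adjustment over all tested genes, threshold 0.05). DESeq2 1.42.0 and limma 3.58.1 (voom, with and without quality weights) were alternatives. A count of 0 allows up to 3 counts, or 0.148 to 0.239 CPM by library, and SDs and p-values cover 3 animals a group. Replicates differed by more than counting noise (median squared difference at least 2.67 times it). The edgeR steps were also run on simulated counts with known differences, and the outcome is not reported here. Relative levels used log2 of CPM with a prior count of 2. Sequences are from GENCODE vM21 and RefSeq (GRCm38.p6).

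The 8 genes and all lists were chosen with earlier results of these data known. All 8 genes were named, with the 4 genes of lowest p and the 2 most abundant of each pathway list, and the 6 nearest profiles. The rule also admits the 3 most abundant and 3 of lowest p of each marker list, and genes within 500 kb on chromosome 1, of which a few examples are named and the rest counted (1 is not reported here); Pigr, Lyn and Sdhc were chosen after their values were seen. Fibroblast, smooth muscle, hepatocyte, liver sinusoid, airway, alveolar macrophage and erythroid lists served as checks.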

Additional observations from a re-analysis of the deposited data

How the results depend on the processing

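All 8 genes kept the sign of their log2 difference under all 20 alternatives. The number of genes past an adjusted p of 0.05 (0 by edgeR) was 291 by DESeq2 (232 lower, 59 higher), 43 by limma-voom with quality weights (35 lower, 8 higher), and 112 without WT replicate 2 and sST2-KO replicate 2 together (73 lower, 39 higher); leaving out 1 library at a time gave 0 to 1. By DESeq2, 3 of the 8 passed: Fcgr1 at -1.54, Fcgr3 at -0.79 and Fcgr2b at -1.32. Fcgr1 also passed without both replicates 2, at -1.86 (edgeR adjusted p = 0.0499). The count of genes with separate groups (5 of 8) was 3 with total counts and no scaling factors, and 8 without both replicates 2 (7 lower, with 25.5% of all genes lower, and Fcgrt higher); it was not recomputed for DESeq2, limma-voom or the replicate block. The pair without both replicates 2 and the unscaled fit were chosen after seeing the data. The labels state no pairing of samples by replicate number. Deviations from the group mean correlated at 0.145, 0.046 and -0.087 between same-numbered libraries. Between differently numbered libraries of the 2 groups they correlated at -0.119 to 0.045. With 3 libraries a group, these values cannot decide whether samples were paired. With the replicate block no gene passed the adjusted threshold, and 7 of the 8 were lower at an unadjusted p under 0.05, in place of 5. That count was 4 to 7 over all alternatives, where 3.37% to 9.29% of all tested genes were lower at that level. With the replicate block that share was 5.64%. The causes of these moves were not tested. The lowest count of any of the 8 genes in a library was 133, for Fcgr4.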

Other observations

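Pigr, the epithelial receptor that carries IgA and IgM across mucosa, reached 816 CPM in sST2-KO replicate 2, while no other library exceeded 0.596 CPM. Igha was highest in the same library, at 180 CPM, and was 132 CPM in sST2-KO replicate 3, where Pigr was near 0. Il33, the cytokine that ST2 binds, had 51.2, 93.6 and 46.7 CPM in sST2-KO libraries and 217, 132 and 162 CPM in WT libraries (log2 difference -1.42, SE 0.33, edgeR adjusted p = 0.354), without overlap. Of the other marker lists, 10 of 10 tested fibroblast genes lay below 0 (median log2 difference -0.56) and 8 of 10 smooth muscle genes above 0 (median 0.24). The smooth muscle median was 0.04 without sST2-KO replicate 3 (5 of 10 below 0), 0.07 without WT replicate 1, 0.70 without WT replicate 2 (0 of 10 below 0), and 0.39 without sST2-KO replicate 2. Airway and lung epithelial genes (median 5.15, and -2.15 without sST2-KO replicate 2) summed to 31171 CPM in sST2-KO replicate 2 and to at most 51.2 CPM elsewhere. Hepatocyte genes, of which 4 of 12 were tested, had a median of -4.07, and of 0.09 without WT replicate 3. The 12 genes summed to 15157 CPM in WT replicate 3 and to at most 1639 CPM elsewhere. That 1639 CPM was in WT replicate 1, where Hp alone had 1311 CPM. Alb was at most 3.83 CPM outside WT replicate 3. Liver sinusoidal genes had a median of -0.43 (-0.66 to -0.25 leaving out 1 library at a time). Alveolar macrophage genes had a median of -0.11 (-0.63 to -0.08 leaving out 1 library at a time), with 124 CPM in sST2-KO replicate 2, inside the range of the other libraries. Erythroid genes were below 0 for 7 of 7, with a median of -2.78 (-3.64 to -2.16 leaving out 1 library at a time). Their sums were 1177, 60.5 and 641 CPM in sST2-KO libraries and 4771, 745 and 4666 CPM in WT libraries. WT replicate 2 thus lay within the sST2-KO range, and the groups overlapped for all 7 genes.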
